A study of Mus musculus with 4 samples.

Results

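Prostaglandins are short-lived lipid signals made from arachidonic acid. The cyclooxygenases encoded by Ptgs1 and Ptgs2 convert it to prostaglandin H2, and terminal synthases then turn this shared intermediate into different products: lipocalin-type prostaglandin D synthase (Ptgds) makes prostaglandin D2, microsomal prostaglandin E synthase (Ptges) makes prostaglandin E2, and prostacyclin synthase (Ptgis) makes prostacyclin. Hpgd, 15-hydroxyprostaglandin dehydrogenase, begins their breakdown, and the products act on neighbouring cells through receptors of the G-protein-coupled family, among them Ptger2, Ptger3 and Ptger4 for prostaglandin E2 and Ptgfr for prostaglandin F2-alpha. In the airway wall, prostaglandin E2 and prostacyclin are known to relax smooth muscle, whereas prostaglandin D2 and its relatives can constrict it. Ptgds is also a secreted lipocalin that carries retinoids and other small lipophilic molecules.

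These 10 genes were followed in the trachea of C57BL/6 mouse embryos at embryonic day 16, in 2 samples from wild type and 2 from an a1H knockout, with 1 Affymetrix array per sample. All 4 arrays share tissue, age and background, and the name a1H was read as the pore subunit of a T-type calcium channel, the product of Cacna1h. The labels do not say which part of the gene was deleted or whether a sample was 1 embryo, a litter or a pool. The values were MAS5 signals, a linear brightness per probe set in arbitrary units. Members were found by gene symbol, and each gene is represented by whichever of its probe sets had the highest mean log2 signal over the 4 arrays. Of the 10 genes, 9 had a probe set, among 18193 genes in all, and together they had 20 probe sets. The expression of Ptgs1 was not analysed here, as the annotation used pairs no probe set with it. The gene set was built around Ptgds, which was chosen by its measured difference between the genotypes, so its values are given as a description and without a test. Probe sets were selected on their mean signal over all 4 arrays.

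Several features of the arrays bear on every value below. Cacna1h itself read 630 and 538 on the wild-type arrays and 981 and 631 on the labelled knockout arrays on the probe set with the higher signal, so the label could not be checked from this probe set, whose position relative to the deletion is unknown. Of 11694 genes above the level filter, a signal of 397, limma called 0 at an adjusted p under 0.05, or 0%, and 536, or 4.58%, had an unadjusted p under 0.05. Leaving out any array left a single array in its group. The spread then came from the other group alone, so calls from such fits are not given. The median signal was 459 and 416 on the wild-type arrays and 426 and 320 on the labelled knockout arrays. The ratio of 3' to 5' signal for actin, a measure of RNA length, was 1.66 to 1.69 in wild type and 1.90 to 1.97 in the labelled knockout. For Gapdh this ratio overlapped between the groups, at 1.26 and 1.40 against 1.36 and 1.61. Spiked hybridisation controls, as a geometric mean of 9 probe sets, followed the replicate number instead, at 6361 and 6258 on the arrays numbered 1 and 14756 and 18565 on those numbered 2. Epcam of epithelium, Col2a1 of cartilage and Acta2 of smooth muscle were bright on all arrays, and so was thyroglobulin (Tg) of the thyroid, at 15050 to 27888. With 2 samples per group an exact two-sided permutation test cannot give a p below 0.333, and p-values reflect only how far these samples differ among themselves, which can be a technical spread.

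The start regions of Ptgds and Ptges are shown first because these synthases draw on the same substrate and both lie on chromosome 2, yet only Ptgds stood apart between the genotypes. Each sequence, from RefSeq on GRCm38.p6, covers 250 bases before the annotated start and 50 after it, read 5′ to 3′ along the gene. Ptgds is at chr2:25469700-25469999 and Ptges at chr2:30903248-30903547, both on the minus strand. Capitals mark E-boxes (CANNTG), the AP-1 motif (TGANTCA) and the SOX core (AACAAT).
Ptgds: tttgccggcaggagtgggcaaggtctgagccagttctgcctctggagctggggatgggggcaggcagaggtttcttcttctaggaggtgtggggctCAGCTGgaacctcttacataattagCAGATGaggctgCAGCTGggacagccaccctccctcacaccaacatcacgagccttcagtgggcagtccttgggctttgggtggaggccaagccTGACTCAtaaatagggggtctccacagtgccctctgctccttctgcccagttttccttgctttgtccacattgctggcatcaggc
Ptges: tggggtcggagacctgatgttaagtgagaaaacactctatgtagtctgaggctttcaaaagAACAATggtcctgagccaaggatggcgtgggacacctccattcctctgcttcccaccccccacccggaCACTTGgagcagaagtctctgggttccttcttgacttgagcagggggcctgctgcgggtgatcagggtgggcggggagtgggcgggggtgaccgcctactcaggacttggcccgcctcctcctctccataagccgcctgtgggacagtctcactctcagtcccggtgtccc

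The 2 start regions shared few of the motifs searched. That of Ptgds held 3 E-boxes and 1 AP-1 motif, which begins at base 216 of the 300 shown. That of Ptges held 1 E-box, 1 SOX core and 2 GC boxes (GGGCGG). Both strands were searched, and none of these matches overlaps another. Over 32851 start regions of the same length, 72.3% held an E-box, 7.81% an AP-1 motif, 10.7% a SOX core and 35.7% a GC box. The cyclic AMP response element (TGACGTCA, in 1.79% of regions), the E-box form CACGTG (in 7.15%) and TATAAA (in 13.6%) were in neither sequence. Of the 8 members other than Ptgds whose start region was searched, Ptges included, none had an AP-1 match. Ptgis was not searched. A match says only that these letters are present.

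Ptgds was several-fold higher on both labelled knockout arrays than on either wild-type array. Probe set 1423859_a_at, the brighter of its 2, gave 1570 and 1124 on the wild-type arrays and 4447 and 8638 on the labelled knockout arrays. The means were 1347 ± 316 and 6543 ± 2963 (SD, n = 2 each). The groups did not overlap, and the lower knockout array still lay above the higher wild-type array by a wide margin, but the knockout arrays differed from each other more than the wild-type arrays did. On the log2(signal + 16) scale used throughout, the difference of labelled knockout minus wild type was 2.21, which is 4.62-fold. It was 1.49 between the arrays numbered 1 and 2.92 between the arrays numbered 2. The dimmer probe set, 1423860_at, gave 606 and 161 on the wild-type arrays and 1325 and 1922 on the labelled knockout arrays, a log2 difference of 2.28. Both probe sets thus ordered the 4 arrays alike, with wild type 2 lowest and labelled knockout 2 highest.

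Of 11694 tested genes, 8 had a larger log2 difference upward than Ptgds, and 42, or 0.359%, were at least 2-fold higher in the labelled knockout without overlap. Since Ptgds was picked for this difference, its place among the genes follows from that choice and nothing is read from it. The difference was 1.73 without labelled knockout 2, 2.69 without labelled knockout 1, 2.45 without wild type 1 and 1.97 without wild type 2. With quantile normalisation, which forces all arrays to the same distribution, it was 2.17.

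**Figure D1:**
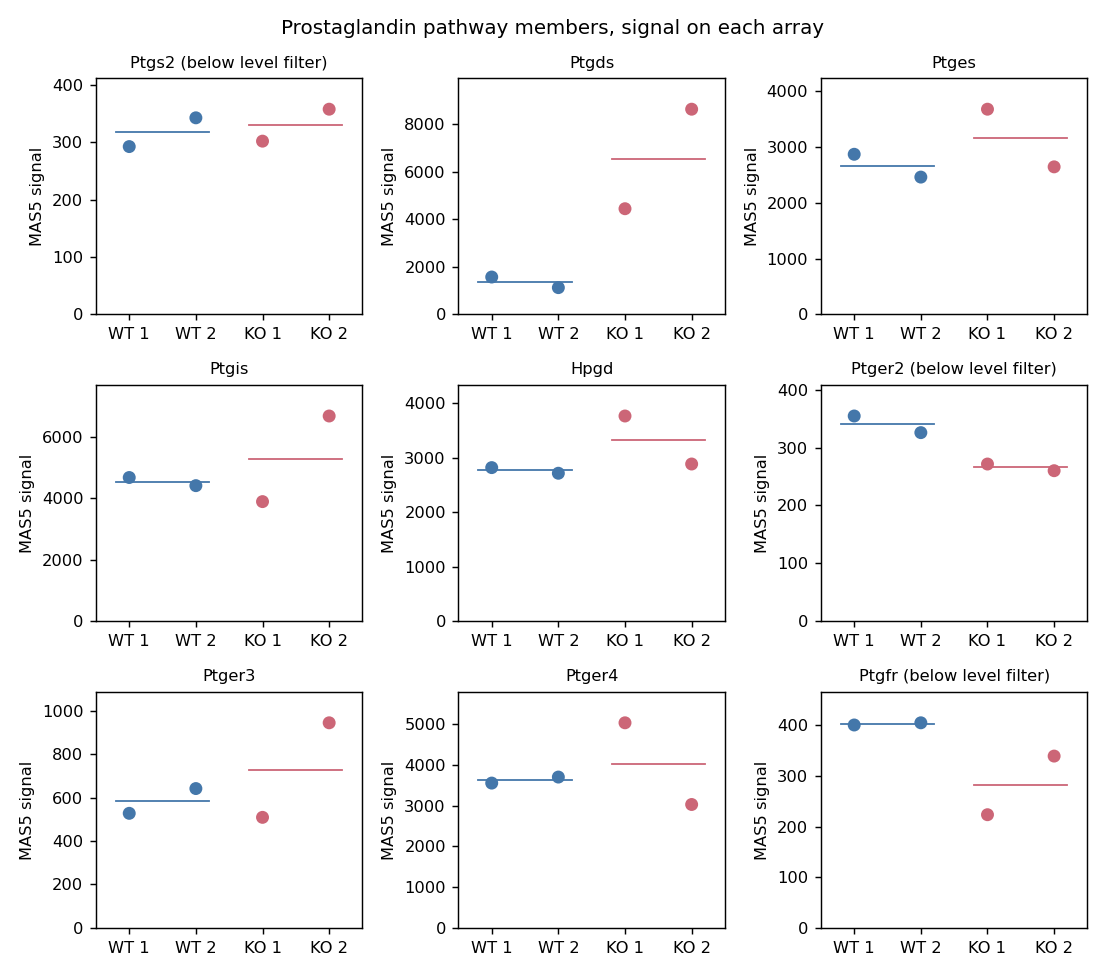
MAS5 signal (linear, y axis from 0) of the 9 measured members on each array, with WT 1 and 2 for wild type and KO 1 and 2 for the labelled knockout; points are single arrays and lines are group means. Ptgds separates the groups, from at most 1570 in wild type to at least 4447 in the labelled knockout, while for Ptgs2, Ptges, Ptgis, Ptger3 and Ptger4 the groups overlap.

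Of the other enzymes of the set, Ptges, Ptgis and Hpgd were tested and none passed, beside 0% of all tested genes, and Ptgs2 lay below the level filter. Ptgs2, the inducible cyclooxygenase that supplies its substrate, was dim, at 293 and 343 on the wild-type arrays and 302 and 358 on the labelled knockout arrays. These values overlapped, and the log2 difference of 0.05 had a 95% interval of -0.82 to 0.92. A second Ptgs2 probe set, 1417263_at, read 43.2 and 53.8 on the wild-type arrays and 6.75 and 2.28 on the labelled knockout arrays, a log2 difference of -1.66. That probe set was among the dimmest of the set, at levels where MAS5 is noisy. After quantile normalisation it was still lower without overlap, at -1.36. Of the genes below the filter, each by its brightest probe set, 7.92% were at least 2-fold lower without overlap. That share does not cover dimmer second probe sets such as 1417263_at. The 2 probe sets of Ptgs2 therefore disagreed.

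Ptges, the inducible prostaglandin E2 synthase, read 2872 and 2463 on the wild-type arrays and 3681 and 2647 on the labelled knockout arrays. The groups overlapped, with labelled knockout 1 highest, and the log2 difference was 0.23 (SE 0.22, limma adjusted p = 0.89). Its other probe sets gave -0.19 and 0.11, so the 3 probe sets did not share a direction. Ptgis, the prostacyclin synthase of vessel walls and smooth muscle, read 4679 and 4414 on the wild-type arrays and 3894 and 6683 on the labelled knockout arrays. The knockout arrays lay on either side of wild type, and the log2 difference was 0.17 (SE 0.26, limma adjusted p = 0.934). Its sign turned when labelled knockout 2 was left out, to -0.22.

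Hpgd, the enzyme of prostaglandin breakdown, was slightly higher on the labelled knockout arrays in both of its probe sets. The brighter read 2820 and 2717 on the wild-type arrays and 3768 and 2886 on the labelled knockout arrays, and the dimmer 2392 and 2491 against 2933 and 2777. The groups did not overlap in either, but both probe sets read the same samples and are not independent. The log2 difference of the brighter was 0.25 with a 95% interval of -0.22 to 0.73 and did not pass (limma adjusted p = 0.876). Groups without overlap in this direction were found for 21.5% of tested genes, and of 4695 genes with 2 probe sets, 3.66% had both arranged in this way.

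Of the prostaglandin E2 receptors, Ptger4, which raises cyclic AMP, read 3551 and 3699 on the wild-type arrays and 5029 and 3026 on the labelled knockout arrays. The knockout arrays fell on both sides of wild type, in the second probe set as well, with log2 differences of 0.50 between the arrays numbered 1 and -0.29 between those numbered 2. The pooled difference of Ptger4 was 0.11 (SE 0.25, limma adjusted p = 0.956), and without labelled knockout 1 it was -0.26. Ptger3, which lowers cyclic AMP, read 527 and 641 on the wild-type arrays and 509 and 944 on the labelled knockout arrays. Its groups overlapped, the log2 difference was 0.25 (SE 0.36, limma adjusted p = 0.93), and it was -0.19 without labelled knockout 2.

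Ptger2 and Ptgfr were dim and lower on the labelled knockout arrays as deposited, but this depended on the scaling of the arrays. Ptger2, another receptor that raises cyclic AMP, read 355 and 326 on the wild-type arrays and 272 and 260 on the labelled knockout arrays, without overlap, a log2 difference of -0.34 with a 95% interval of -1.21 to 0.53. Ptgfr, the prostaglandin F2-alpha receptor, read 400 and 405 on the wild-type arrays and 223 and 339 on the labelled knockout arrays on its brightest probe set, a log2 difference of -0.52 with an interval of -1.44 to 0.39. All 5 Ptgfr probe sets were lower without overlap in the deposited values, with log2 differences from -0.68 to -0.27. This arrangement in every probe set was found in 1.73% of 463 genes with 5 probe sets.

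Dim genes as a class were lower on average on the labelled knockout arrays. Of these arrays, only labelled knockout 2, at 320, had a median signal below both wild-type arrays. Of the 6499 genes below the filter 65.8% were lower, their median log2 difference was -0.21, and 27.1% were lower without overlap. Over all 45037 probe sets without controls the median was -0.14 as deposited and 0.00 after quantile normalisation (0.0027). After that normalisation the Ptger2 difference was -0.07 with overlapping groups. Ptgfr was then lower without overlap on only 1 of its 5 probe sets, 1446331_at, at -0.39, and its brightest gave -0.27 with overlap. The Ptgds difference changed little under the same step, as given above.

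**Figure D2:**
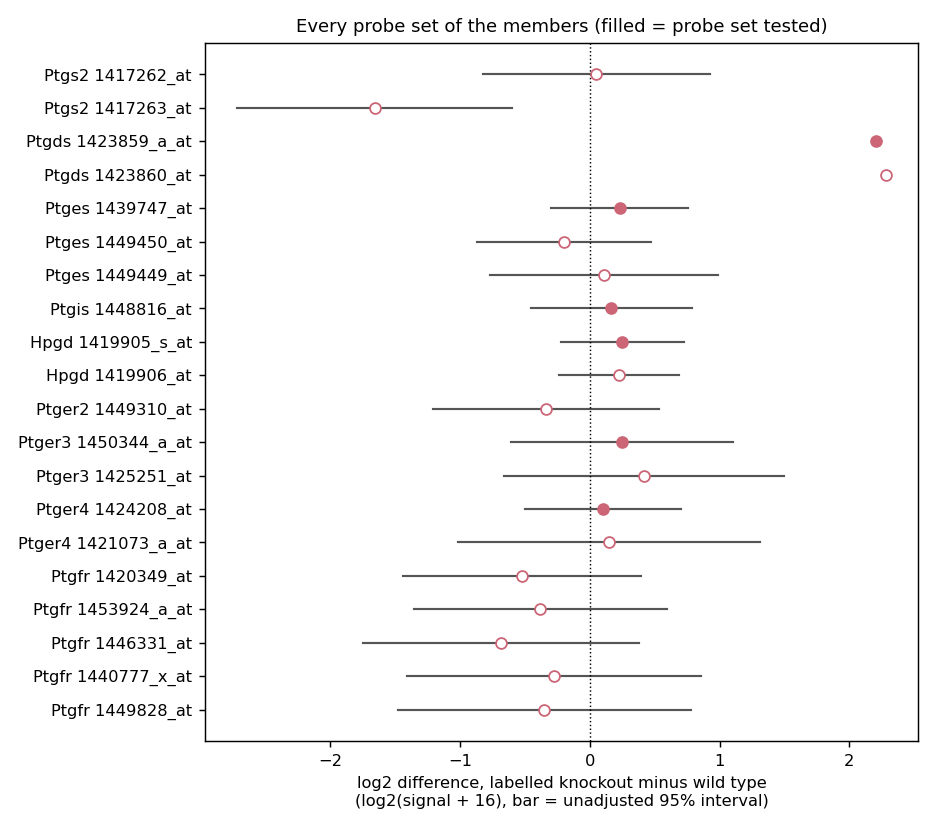
Log2 difference, labelled knockout minus wild type (x axis, log2(signal + 16) scale), for all 20 probe sets of the 9 measured members; bars are unadjusted 95% intervals, filled points are probe sets tested over all genes and open points are not. Ptgds is drawn without intervals because it was chosen for this contrast; its probe sets sit at 2.21 and 2.28, and the other tested probe sets lie between 0.11 and 0.25.

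Counted together, 6 members lay above the level filter and 3, Ptgs2, Ptger2 and Ptgfr, below it. Apart from Ptgds, 0 of 5 tested members passed the limma test, with a smallest adjusted p of 0.876, beside 0% of all tested genes. All 5 had log2 differences above 0, between 0.11 and 0.25, beside 55.9% of all tested genes, and 4 of the 5 changed sign when a labelled knockout array was left out, Hpgd being the exception. Among the 5 tested members other than Ptgds, the groups did not overlap for Hpgd only, beside 36.1% of tested genes. Below the filter they did not overlap for 2 of the 3 members, beside 35.4% of genes there. At this precision, with a median SE of 0.24 over tested genes, the upper ends of the 95% intervals were 0.73 for Hpgd and 1.10 for Ptger3, so moderate differences were not detectable.

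None of the other genes of prostanoid and leukotriene metabolism passed the test, beside 0% of all tested genes. Of 33 listed genes 30 had a probe set and 16 were tested, 11 higher and 5 lower, where 55.9% of all tested genes were higher. The median log2 difference was 0.17 against 0.04 over all tested genes, and it was 0.0044 with a level filter at the 75th percentile and 0.047 with each gene's probe sets averaged. The groups did not overlap for 5 of the higher genes and 1 of the lower, beside 36.1% of all tested genes, so this count is near the background. Ptges2, a second prostaglandin E2 synthase, read 993 and 815 on the wild-type arrays and 1360 and 1185 on the labelled knockout arrays, a log2 difference of 0.49 (SE 0.26, limma adjusted p = 0.875). Ptgr1, a reductase that inactivates prostaglandins and leukotriene B4, read 2706 and 2623 against 3232 and 3507, a log2 difference of 0.34 with SE 0.18. Both were higher within each replicate number.

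Hpgds, the haematopoietic enzyme that also makes prostaglandin D2, did not share the pattern of Ptgds. It read 492 and 408 on the wild-type arrays and 484 and 378 on the labelled knockout arrays, a log2 difference of -0.06 with SE 0.31 and a 95% interval of -0.79 to 0.67. The prostaglandin D2 receptors were dim: Ptgdr read 204 and 207 on the wild-type arrays and 116 and 199 on the labelled knockout arrays, and Ptgdr2 read at most 32.8 on any array. Neither receptor gene was above the filter.

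Tested phospholipase and leukotriene genes varied within similar bounds. Some dimmer genes of these lists, below the filter and not tested, had larger differences, in either direction. Pla2g6, a calcium-independent phospholipase, had a log2 difference of 0.40. Lta4h, which makes leukotriene B4, read 2860 and 2816 on the wild-type arrays and 4246 and 3239 on the labelled knockout arrays, a difference of 0.38 with SE 0.20. Alox5ap, the helper protein of 5-lipoxygenase, had 0.36, and Alox15, a lipoxygenase, had 0.22 with overlapping groups. Slco2a1, the prostaglandin uptake carrier, read 1378 and 1139 against 1171 and 2197, so labelled knockout 2 alone was high, as for Ptgis. Ptgfrn, a membrane protein that binds the prostaglandin F2-alpha receptor, was the only tested gene of the receptor list, at 11089 and 11649 on the wild-type arrays and 10079 and 9363 on the labelled knockout arrays, a log2 difference of -0.23 with SE 0.19.

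**Figure D3:**
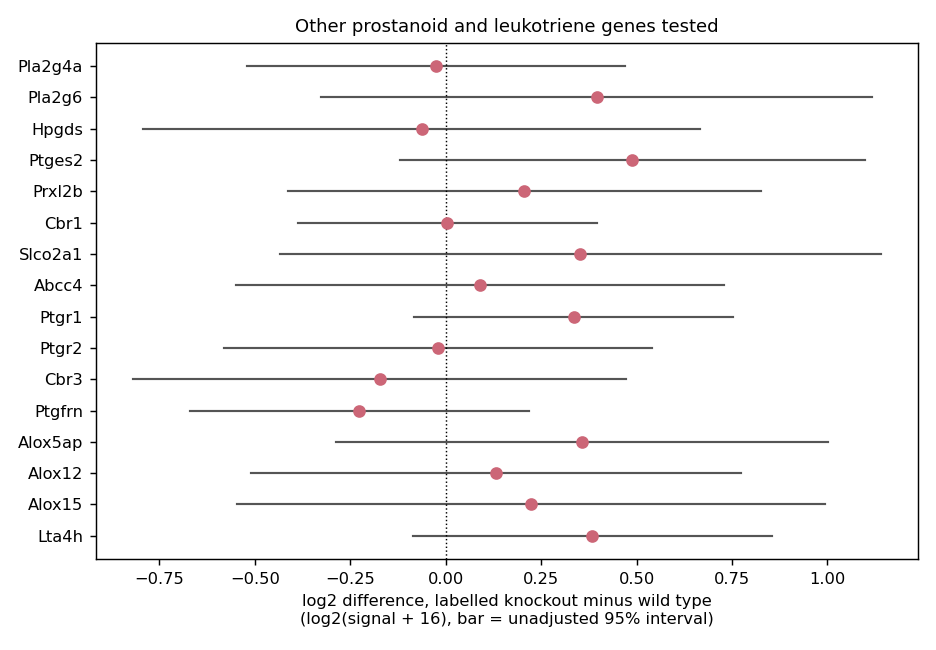
Log2 difference, labelled knockout minus wild type (x axis), with unadjusted 95% intervals for the 16 tested prostanoid and leukotriene genes outside the member set, in the order of release, synthesis, transport and breakdown, receptors and leukotrienes. Every interval spans 0, and Ptges2 is highest at 0.49.

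No tested gene related to Ptgds by family or by position was called, beside 0% of all tested genes. Of 16 other lipocalin genes listed, 13 had a probe set and 4 were tested, 1 higher and 3 lower. Apom, the lipocalin of high-density lipoprotein, had the largest difference of the 4 tested at -1.03, which came from wild type 2 alone, at 1980 against 239 to 424 on the other arrays. Without wild type 2 it was 0.45. Among the 9 below the filter, Lcn8, chosen after its values were seen, read 113 and 118 on the wild-type arrays and 23.5 and 35.3 on the labelled knockout arrays, a log2 difference of -1.55 at levels where MAS5 is noisy. On chromosome 2 the measured genes on one side of Ptgds were Clic3, Paxx and Abca2, with log2 differences of -0.51, -0.02 and -0.45. On the other side were Lcn12, C8g and Fbxw5, with 0.59, -0.43 and 0.07, and Lcn12 read no more than 136 on any array. Abca2, Lcn12 and C8g lay below the filter and were not tested.

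Markers of tissues beside the trachea also differed among these arrays. In bulk tissue, more cells of a type and more RNA per cell cannot be told apart. For scale, 55.9% of all tested genes were higher in the labelled knockout, and 21.5% were higher without overlap. All 6 thymic epithelium markers were higher in the labelled knockout, 5 without overlap. The summed signal of these markers was 3401 and 7085 on the wild-type arrays and 21698 and 11945 on the labelled knockout arrays. Foxn1, the defining factor of that epithelium, was dim at 55.4 to 138, below the filter, so the shares of tested genes do not cover it. Psmb11 read 173 and 390 on the wild-type arrays, under the filter level, and passed it only through the labelled knockout arrays. Of 7 thymocyte genes all were higher on average, 3 without overlap, and Cd3e, Cd3g, Rag1 and Cd8a were lower on labelled knockout 2 than on wild type 2. Their summed signal was 5023 and 14482 on the wild-type arrays and 31240 and 12596 on the labelled knockout arrays. Both sums were highest on labelled knockout 1, whereas Ptgds was highest on labelled knockout 2.

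Placental markers were bright on labelled knockout 2 alone. Their sum over 4 genes was 329 and 625 in wild type, 320 on labelled knockout 1 and 74096 on labelled knockout 2, with Prl8a9, a placental prolactin-family gene, at 29880 there and at most 4.43 elsewhere. Without that array the Ptgds difference was 1.73. Salivary gland markers summed to 418 and 55773 in wild type and to 24316 and 8349 in the labelled knockout, and were lowest on wild type 1. Heart muscle markers summed to 83860 and 72033 against 118900 and 78440, and of 7 genes 4 were higher on average and 3 lower. Myh6, Myl7, Nppa and Ryr2 were lowest on labelled knockout 2, whereas Actc1 and Myl4 were highest there. All 4 measured thyroid markers were lower in the labelled knockout, 3 without overlap, where 14.6% of tested genes were lower without overlap. Of these 3, Tshr lay below the filter, where the share was 27.1%. The thyroid markers had a median log2 difference of -0.61 and sums of 22941 and 30038 against 21212 and 16270. What part these tissues have in the Ptgds difference was not tested.

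Cell types known for strong Ptgds expression elsewhere in the body were looked at in the same way. Of 7 melanocyte markers 4 were higher and 3 lower, and 6, among them the pigment enzymes Dct, Tyrp1 and Tyr, were below the filter on average and read at most 221. The exception was Mitf, a transcription factor also active in other cells, at 3148 and 1903 on the wild-type arrays and 5326 and 4509 on the labelled knockout arrays. Markers of the leptomeninges summed to 11070 and 9503 in wild type and to 10707 and 13752 in the labelled knockout, 5 of 8 higher. The transporters Slc22a6, Slc13a4, Slc6a13 and Slc47a1 were below the filter on average, though Slc47a1 read 568 on wild type 1 and 1044 on labelled knockout 1, and Crabp2, a retinoic acid carrier, read 6157 on labelled knockout 2 and at most 1831 elsewhere. Mast cells, which use Hpgds, had 2 of 6 markers higher and 4 lower. Of 4 measured markers of Schwann and glial cells 2 were higher and 2 lower. The largest difference among them was that of Sox10, at 694 and 1060 on the wild-type arrays and 1268 and 2238 on the labelled knockout arrays.

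**Figure D4:**
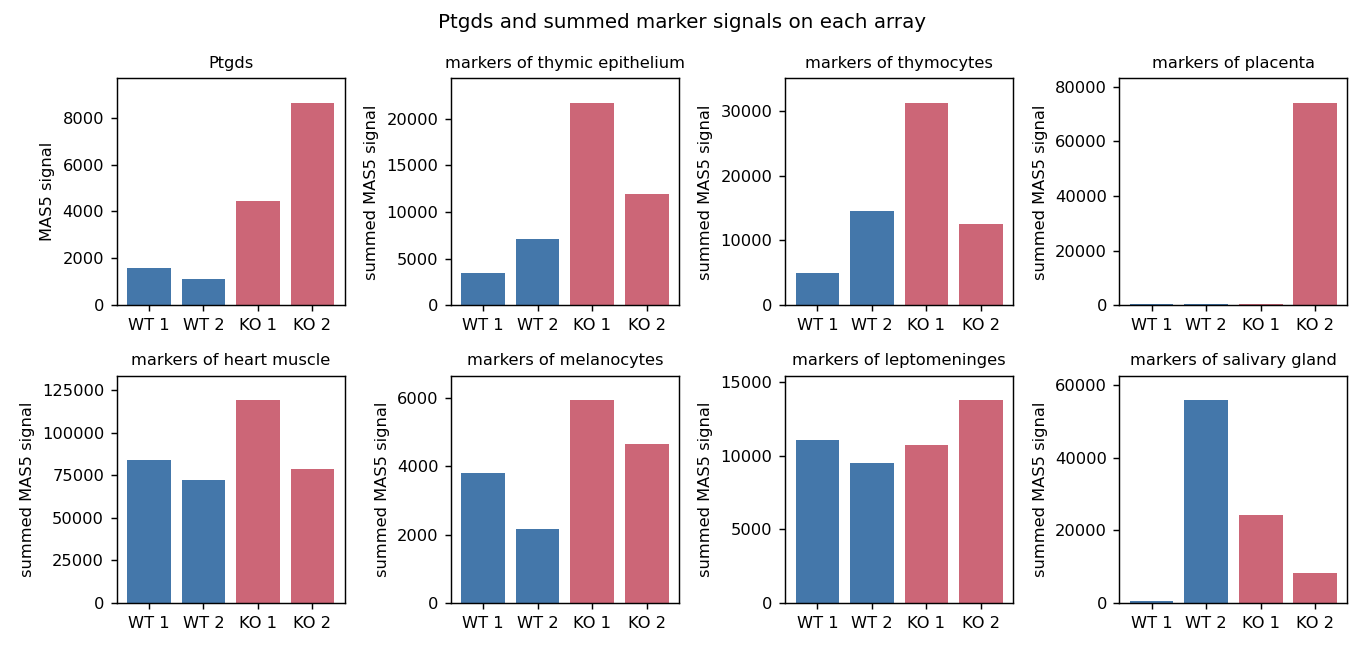
Signal of Ptgds and summed signal of 7 marker lists on each array (y axes, MAS5 signal from 0; WT is wild type, KO the labelled knockout). Ptgds rises to 8638 on KO 2, thymic epithelium and thymocyte sums peak on KO 1, and the placental sum is 74096 on KO 2 and at most 625 on the other arrays. Mitf, which is also active in other cells, makes up most of the melanocyte sum on every array, and the other 6 melanocyte markers were below the filter.

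The genes whose course over the 4 arrays lay closest to that of Ptgds were Ada, Hba-x, Tmem242, Gla, Pax1, 2610528A11Rik, Rec114 and Tmem108. Likeness was the Euclidean distance between log2 profiles centred on each gene's mean, among 11693 other tested genes. The distance was 0.94 for Ada and 1.36 for Tmem108, where a flat profile would lie at 2.33 from Ptgds. Ada, adenosine deaminase, read 475 and 595 on the wild-type arrays and 996 and 3653 on the labelled knockout arrays. Pax1, a transcription factor of the pharyngeal pouches and sclerotome and also a gene of the thymic epithelium list, read 596 and 1186 against 3062 and 2997. Hba-x, an embryonic globin, had overlapping groups and was high on labelled knockout 2 only. With 4 arrays many genes take similar courses: 572 had a Pearson correlation above 0.95 with Ptgds. Of the 8 closest by distance, only Gla and Tmem108 were among these, and Ada had a correlation of 0.92. On the wild-type arrays Gla read 365 and 325 and Tmem108 340 and 278, all under the filter level. Both genes passed the filter only through the labelled knockout arrays. A filter on the mean level thus lets in dim genes that are high where Ptgds is high. How far it shaped this list was not tested. The likeness uses the Ptgds values for which that gene was chosen, so it is a description only.

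**Figure D5:**
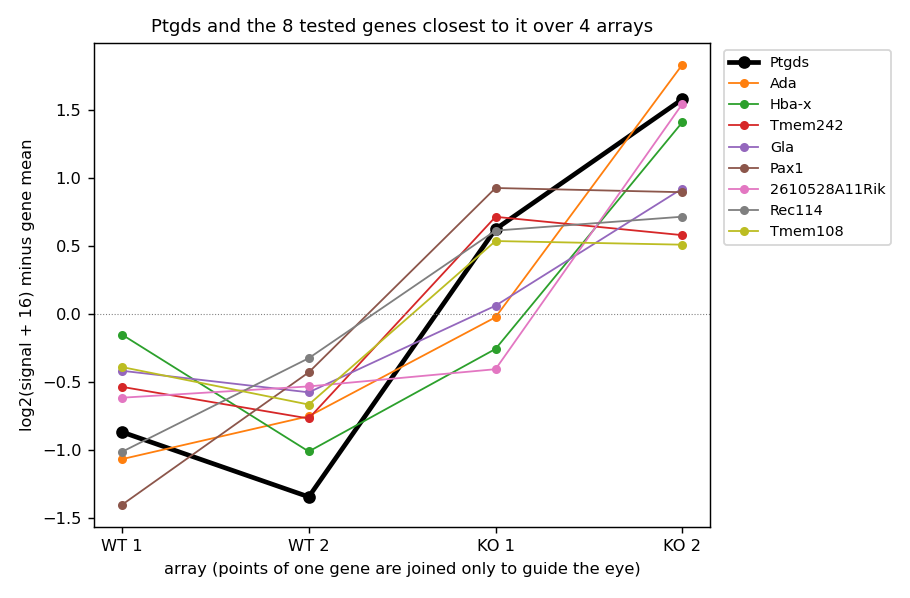
Centred log2(signal + 16) of Ptgds (black) and of the 8 closest tested genes on each array (x axis; WT is wild type, KO the labelled knockout). Ptgds, Ada, Hba-x, Gla and 2610528A11Rik are highest on KO 2, while Pax1, Tmem242, Rec114 and Tmem108 stand at similar heights on both KO arrays.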

How the data were processed

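Per the labels' protocols, Trizol-extracted RNA was amplified from 50 ng by the SPIA method and labelled with biotin. The authors deposited intensity values on a linear scale, and the submitters' processing notes name MAS5 as the tool, with its settings not stated there. With 2% trimmed from each end, each array's mean was 1500. MAS5 is noisy for dim probe sets, and no detection calls were used.

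Of 45101 probe sets, 64 were controls, 34945 had exactly 1 gene in the platform annotation, 932 several and 9160 none. Of the first kind, 34741 symbols were updated through RefSeq gene identifiers. Genes were tested where the mean log2 signal reached the median of the probe sets that are not controls. limma 3.58.1 in R 4.3.3 (lmFit, eBayes with an intensity trend) was run on log2(signal + 16) over all 4 arrays with genotype alone as a term, and p-values were adjusted by Benjamini-Hochberg over 11694 genes at a threshold of 0.05. SEs and intervals are the moderated ones; those of probe sets not tested come from a fit of all probe sets. The scripts were tested on simulated data. Figures used matplotlib 3.10.9 in Python 3.11.15.

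Members, lists and rules were chosen with earlier results of these data known. Named genes were the members, Hpgds, Ptgdr, Ptgdr2, the 8 other tested pathway genes with the largest differences, tested lipocalins at least 2-fold different, the 8 genes closest to Ptgds, 3 measured neighbours on each side and Cacna1h. Marker genes, Tg and Lcn8 were named after their values were seen. The alternatives are listed in the closing section.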

Additional observations from a re-analysis of the deposited data

How the results depend on the processing

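The alternatives were pseudocounts of 1 and 64, the level filter removed or raised to the 75th percentile, quantile normalisation, each gene's probe sets averaged, no intensity trend, a replicate block and each array left out in turn. The count of genes called was 0 in all but the last, where it ran from 0 to 492. With the replicate block 0 genes were called, and 1359 had an unadjusted p under 0.05 against 536 without it. The correlation between genotypes of the difference between arrays 1 and 2 was 0.32 over genes, and the spiked controls were alike within a number, but the labels do not say that the numbers pair samples. The Ptgds difference stayed between 1.73 and 2.69. The median of the other pathway genes was 0.11 with no filter, 0.0044 at the higher filter, 0.22 with quantile normalisation, 0.047 with probe sets averaged and 0.093 to 0.20 with an array left out. With quantile normalisation 4 of the 8 genes closest to Ptgds were the same, Hpgds turned to 0.15 and Paxx to 0.024. Leaving out an array turned the sign of uncalled differences, with ranges of -0.0071 to 0.47 for Ptges, -0.22 to 0.55 for Ptgis, -0.19 to 0.68 for Ptger3, -0.26 to 0.47 for Ptger4, -0.096 to 0.80 for Slco2a1, -0.087 to 0.53 for Alox15, -2.51 to 0.45 for Apom, -0.23 to 0.11 for Hpgds, -0.15 to 0.10 for Paxx and -0.25 to 0.38 for Fbxw5. Ptgs2 moved to 0.31 with quantile normalisation and to -0.80 with its probe sets averaged. The cause of these changes was not tested. Members with a mean level below the filter, Ptgs2, Ptger2 and Ptgfr, are limited by noise at low signal, and only 2 arrays per group limit the precision.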
